A study of Mus musculus with 18 samples.

Results

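The 10 genes described here, of 21859 rows in the deposited count table, are Bmi1, Ring1, Rnf2, Cbx2, Cbx7 and Scmh1 of PRC1 and Ezh1, Ezh2, Eed and Suz12 of PRC2. They were picked by symbol as Polycomb group genes, and Bmi1 was picked because it was lower after OSK. Its value in Old OSK against Old control is therefore a description without a test. All 10 passed the filter on low counts and were among the 15944 genes tested.

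Polycomb group proteins keep developmental and cell cycle genes silent by modifying histones. Polycomb repressive complex 2 (PRC2) methylates lysine 27 of histone H3 and is built from EED, SUZ12 and either EZH1 or EZH2. Polycomb repressive complex 1 (PRC1) places ubiquitin on histone H2A through RING1 or RNF2, which work with a partner of the PCGF family such as BMI1, and its canonical forms bind the PRC2 mark through CBX proteins. BMI1 is best known for holding down the Ink4 locus, where Cdkn2a and Cdkn2b encode cell cycle inhibitors associated with senescence.

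The data are RNA-seq read counts per gene from mouse retinal pigment epithelium (RPE), which lies behind and supports the photoreceptors. Young (n = 7) and Old (n = 4) are labelled with no treatment, Old control (n = 3) received AAV2-tTA, and Old OSK (n = 4) received AAV2-tTA with TRE-OSK. AAV2 is a viral vector, tTA a transactivator, TRE the promoter it drives, and OSK the reprogramming factors Oct4, Sox2 and Klf4. Both vector groups thus carried AAV2-tTA; strain, ages, doses and times are not given in the sources used here, nor is whether animals were pooled, so p-values measure only the spread between libraries.

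Libraries held 18104828 to 32348136 counts. The 8 RPE markers (Rpe65, Best1 and others) were all detected, with a summed level of 38700 to 64300 CPM (counts in proportion to the TMM-scaled library size) in Young, 26500 to 46500 in Old, 19800 to 61700 in Old control and 14800 to 29400 in Old OSK. Old replicate 4 and Old control replicate 2 had RPE marker sums inside the Old OSK range. The 8 rod markers summed to 146 to 2810 CPM in Young, 1950 to 7060 in Old, 1490 to 17700 in Old control and 2640 to 14900 in Old OSK, so photoreceptor RNA was present in each group. In 6 libraries (Young replicates 5 to 7, Old control replicates 2 and 3, Old OSK replicate 4) the library name carries an unexplained M. These 6 had 4040 to 5493 counts on 4 Y-linked genes, against at most 93 in the other 12. Pou5f1 (Oct4) stood at 50.2 to 97.4 CPM in the Old OSK libraries and at 0.338 to 1.06 CPM in the Old control libraries.

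Sequence upstream of the start of Bmi1 is shown beside that of Pcgf2, its closest paralog, because the levels of the 2 genes are compared. Both stretches are the 250 bases before the RefSeq start in GRCm38.p6, 5′ to 3′ on the gene's strand: Bmi1 at chr2:18676768-18677017 (+ strand) and Pcgf2 at chr11:97699649-97699898 (- strand). Capitals mark CACGTG (the E-box of MYC-type factors) and CACCC (the core of Krüppel-like factor sites) on either strand; in Pcgf2 the E-box and a CACCC core on the other strand share a base.
Bmi1: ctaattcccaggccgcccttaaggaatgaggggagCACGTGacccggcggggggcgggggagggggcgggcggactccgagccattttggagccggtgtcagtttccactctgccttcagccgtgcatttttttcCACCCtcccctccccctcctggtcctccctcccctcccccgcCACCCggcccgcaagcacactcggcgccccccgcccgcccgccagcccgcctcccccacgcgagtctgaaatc
Pcgf2: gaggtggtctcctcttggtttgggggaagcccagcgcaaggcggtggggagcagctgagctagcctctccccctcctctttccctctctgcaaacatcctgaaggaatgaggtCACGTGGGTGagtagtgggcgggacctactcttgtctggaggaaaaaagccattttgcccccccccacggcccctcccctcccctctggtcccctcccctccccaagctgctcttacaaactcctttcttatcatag

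CACGTG was found in 1 of the 9 listed genes with a promoter entry (Bmi1) and in 6.02% of all 32851 mouse promoter windows of that length. CACCC was found in 7 of the 9 and in 52% of all windows. The octamer ATGCAAAT bound by Oct4 and the Sox-type sequence ACAATG were in none of the 9 (1.6% and 10.7% of all windows), searched on both strands. The Bmi1 window is 70.4% G and C with 21 CpG dinucleotides, against medians of 52.4% and 6 over all windows. The first of the 2 Scmh1 windows (81.6%, 45 CpG) and those of Suz12 (73.6%, 37 CpG) and Ring1 (73.6%, 30 CpG) are richer, those of Ezh1 (55.2%, 14 CpG) and Eed (54.4%, 12 CpG) poorer. These matches describe letters in the sequence and not bound sites.

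Levels of different genes were set side by side per kilobase of exon (GENCODE M21, GRCm38; the annotation the authors counted on is not given in the sources used here). Over the 18 libraries Bmi1 was the most abundant of the 10 at 23.2 ± 4.08 CPM per kb (SD, n = 18), followed by Suz12 at 14.8 ± 2.09. Ring1 (10.8 ± 1.34) and Rnf2 (9.48 ± 1.03), which encode alternative E3 ligases of PRC1, overlapped in mean ± SD. So did the neighbours Ezh1 (7.52 ± 0.44) and Cbx7 (6.7 ± 0.563), and Cbx7 and Eed (5.49 ± 0.988). These spreads are across libraries. Whether the levels per kb of 2 genes differ within the same library was not tested. Scmh1, which encodes a PRC1-associated protein of the Scm family, stood at 3.63 ± 0.35. Ezh2 (1.51 ± 0.328) and Cbx2 (0.535 ± 0.243) were the least abundant. The methyltransferase gene Ezh2 lay below Ezh1 in every library, with a log2 ratio of scaled counts, before length, between -3.26 and -1.96. Ezh1 was also the steadiest of the 10, with a coefficient of variation of 5.85%, against 17.6% for Bmi1 and 45.5% for Cbx2.

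**Figure D1:**
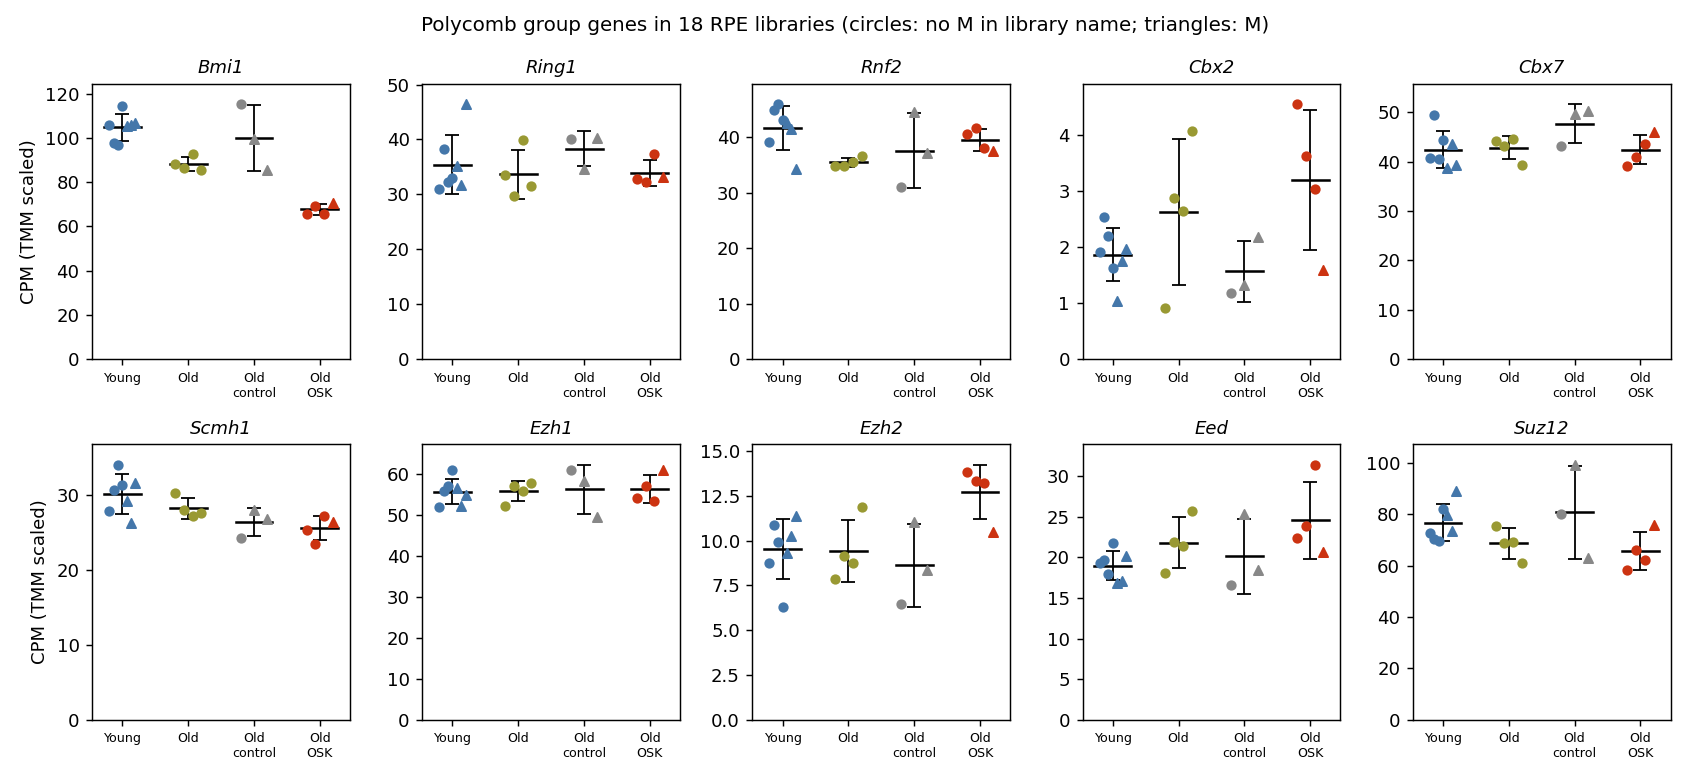
Level of each of the 10 Polycomb genes in CPM after TMM scaling (y axis, from 0) in each library of the 4 groups; points are libraries, triangles those with M in their name, and bars the group mean ± SD. The 4 Old OSK libraries of Bmi1 lie at 65.5 to 70.5 CPM, below all other libraries, while Ezh1 stays near 56 CPM in each group.

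Bmi1 (chromosome 2, 18677018 to 18686629, + strand, GRCm38) encodes the PCGF subunit that with RING1 or RNF2 forms canonical PRC1. The 7 Young libraries ranged from 97 to 115 CPM with a median of 106. The 4 Old libraries had 88.2, 86.5, 92.6 and 85.4 CPM, the 3 Old control libraries 115.4, 99.4 and 85.6 CPM, and the 4 Old OSK libraries 65.7, 69.2, 65.5 and 70.5 CPM. Every Old OSK library was thus lower than every library of the other 3 groups, and every Old library was lower than every Young library. The Old control libraries spread across the Old and Young ranges. Each library held at least 1272 Bmi1 reads. The nearest Old and Young libraries, at 92.6 and 97 CPM, lay close together.

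Bmi1 was lower in Old than in Young, with a call that most alternative fits did not keep. Young averaged 104.8 ± 6 CPM (SD, n = 7) and Old 88.2 ± 3.17 CPM (SD, n = 4), which is a fitted change of -0.25 on the log2 scale (SE 0.07; edgeR adjusted p = 0.044), or -15.9%. It was the 1 gene of the 10 called, where 9.56% of all genes were called and 4.16% called lower, and the 1 gene of the 10 whose groups did not overlap, where 5.61% of all genes were lower without overlap. The direction was negative in all alternatives, with log2 fold changes between -0.29 and -0.22, but the call was marginal. Of 11 refits omitting 1 library, 2 kept it, those without Young replicate 2 or 3 (adjusted p = 0.0337 to 0.164 over the 11, highest without Old replicate 4), and it was lost in the 4 Young and 4 Old libraries without M (-0.23, adjusted p = 0.163). A rod score, the mean log2 CPM of the 8 rod markers, was also tried as a covariate, since the summed rod markers ran higher in Old. With it the log2 fold change of Bmi1 was -0.29 (edgeR adjusted p = 0.0712).

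Beside the other old groups, Bmi1 averaged 67.7 ± 2.51 CPM with OSK (SD, n = 4) and 100.2 ± 14.9 CPM with AAV2-tTA alone (SD, n = 3). The fitted log2 fold change was -0.56 (SE 0.09), which is -32.4%; against Old it was -0.38 (SE 0.08) and against Young -0.63 (SE 0.07). These contrasts share the Old OSK libraries that chose the gene and are given without a test. Leaving out each library in turn gave -0.67 to -0.45 against Old control, nearest to 0 without Old control replicate 1. Within the libraries with M, the Old OSK library had 70.5 CPM and the Old control libraries 99.4 and 85.6 CPM. Within those without M, the 3 Old OSK libraries had 65.5 to 69.2 CPM and the Old control library 115.4 CPM. Old replicate 4 and Old control replicate 2, with RPE marker sums inside the Old OSK range, had Bmi1 at 85.4 and 99.4 CPM. Their rod marker sums were 4936 and 17700 CPM, against 2640 to 14900 CPM in Old OSK, so their RNA was not matched in make-up. The part of RPE content in the Bmi1 values was not tested. In bulk RNA fewer cells of a type and less transcript per cell cannot be told apart.

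Old control was also set against Old, which has no vector in its labels. Bmi1 stood at a log2 fold change of 0.18 (SE of 0.09; edgeR adjusted p = 0.9), with overlapping groups. None of the 10 genes was called (0 at an unadjusted p under 0.05 and 0 by DESeq2), in a comparison that called 0% of all genes and had 3.74% of them at an unadjusted p under 0.05.

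Pcgf2, also called Mel18, encodes the PCGF protein most similar to BMI1 and is no member of the 10. It stood at 31.7 ± 3.15 CPM in Young (SD, n = 7), 24.9 ± 2.16 in Old (SD, n = 4), 23.1 ± 7.26 in Old control (SD, n = 3) and 22.8 ± 0.565 in Old OSK (SD, n = 4). The log2 fold change was -0.35 in Old against Young (SE 0.13, edgeR adjusted p = 0.0912) and -0.02 in Old OSK against Old control (adjusted p = 0.946). Commd3 lies just upstream of Bmi1 on the same strand (chromosome 2, 18672384 to 18676231) and was chosen after the values of Bmi1 were seen. Its Old OSK libraries (53.7 to 63 CPM) overlapped the Old control libraries (61.4 to 65.3 CPM), with a log2 fold change of -0.14 (SE 0.12, adjusted p = 0.501) and of 0.02 with age (adjusted p = 0.898).

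**Figure D2:**
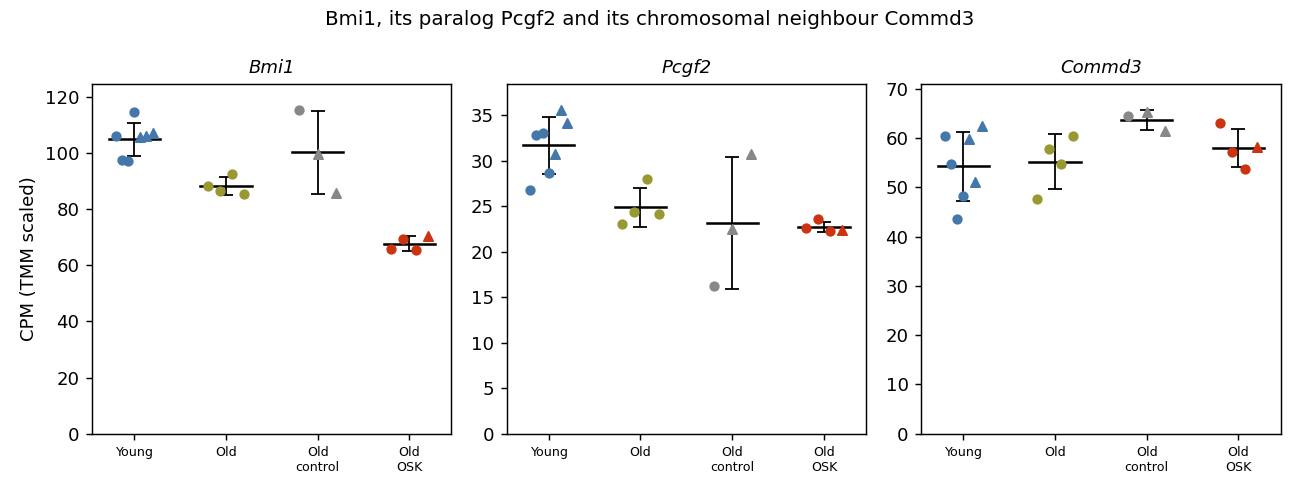
Bmi1, its paralog Pcgf2 and its neighbour Commd3 in CPM (y axes from 0) by library and group; points are libraries (triangles with M in the name), bars the mean ± SD. Bmi1 is lowest in Old OSK (67.7 CPM), whereas Pcgf2 has similar means in Old control (23.1) and Old OSK (22.8), and Commd3 overlaps between those groups.

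The 5 genes whose log2 CPM followed that of Bmi1 most closely over the 18 libraries, among the 10232 genes that averaged 3 or more in log2 CPM, were Kbtbd7 (Pearson r = 0.96), Zfp24 (0.943), Igip (0.936), Scoc (0.93) and Ccdc186 (0.93). This is a description across libraries that share groups and scaling, and that include the Old OSK libraries that chose Bmi1. Kbtbd7 averaged 46 CPM in Young, 36.8 in Old, 40.9 in Old control and 27.4 in Old OSK. After the group means were removed, r with Bmi1 was 0.702 for Kbtbd7, 0.688 for Zfp24, 0.652 for Igip, 0.746 for Scoc and 0.472 for Ccdc186. By this measure Scoc ranked 7 and Ccdc186 ranked 419 among the genes. Among the listed genes, Suz12 had the highest r with Bmi1 over the 18 libraries (0.65) and Ezh2 the lowest (-0.67). Of the ranked genes 80.1% lay below Suz12 and 11.8% below Ezh2. Within groups Ezh1 was highest at 0.62 (0.16 over the 18 libraries), followed by Suz12 at 0.59, and Ezh2 was lowest at -0.55.

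Of the other PRC1 genes among the 10 listed, the ligase gene Rnf2 (chromosome 1, 151458004 to 151500955, - strand) showed the lowest p with age. Its Old libraries had 34.9, 34.8, 35.6 and 36.6 CPM and its Young libraries 34.3 to 46 CPM with a median of 42.5, so that 1 Young library (replicate 7) lay below all Old libraries. The log2 fold change was -0.23 (SE 0.09, edgeR adjusted p = 0.112). After OSK it was 0.07 (adjusted p = 0.756). Ring1, the other ligase gene, had log2 fold changes of -0.07 with age (adjusted p = 0.71) and -0.18 after OSK (adjusted p = 0.434). The log2 ratio of Rnf2 to Ring1 was 0.08 ± 0.18 in Old (SD, n = 4) and 0.24 ± 0.31 in Young (SD, n = 7), a difference of -0.16 (two-sided exact permutation p = 0.391, adjusted p = 0.618 over the 9 ratio tests). Without Young replicate 7 it was -0.27 (exact p = 0.00476, unadjusted), and without Old replicate 3 it was -0.07 (exact p = 0.758).

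Cbx2 and Cbx7 encode chromodomain proteins that read methylated H3 lysine 27. Cbx2 was scarce, with 18 to 136 reads per library, and counting error is largest here. Its Old OSK libraries had 4.55, 3.62, 3.04 and 1.58 CPM and its Old control libraries 1.19, 1.32 and 2.18 CPM. Old OSK replicate 4, the library with M, lay inside the control range and the other 3 above it. Fitted over all libraries, Cbx2 had a log2 fold change of 1.03 (SE 0.44, adjusted p = 0.156), and it was 0.49 with age (SE 0.35, adjusted p = 0.368). Cbx7, the more abundant paralog, averaged 47.7 ± 3.99 CPM in Old control (SD, n = 3) against 42.5 ± 2.97 CPM with OSK (SD, n = 4). Its fitted difference was -0.17 on the log2 scale (SE 0.09, adjusted p = 0.273). With age it was 0.01 (adjusted p = 0.931). Scmh1 drifted little: 30.1 ± 2.61 CPM in Young (SD, n = 7), 28.2 ± 1.38 in Old (SD, n = 4), 26.3 ± 1.88 in Old control (SD, n = 3) and 25.6 ± 1.59 in Old OSK (SD, n = 4), with no call in the 3 comparisons (adjusted p = 0.456, 0.839 and 0.91).

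The genes of the catalytic subunits of PRC2 differed in level and in spread. Ezh1, the form typical of non-dividing cells, averaged 55.7 CPM in Young, 55.8 in Old, 56.3 in Old control and 56.4 in Old OSK. Its log2 fold changes were 0 with age (SE 0.07, edgeR adjusted p = 0.991) and 0 after OSK (SE 0.08, adjusted p = 0.995). Ezh2, the form typical of dividing cells, had 13.8, 13.3, 13.2 and 10.5 CPM in the Old OSK libraries and 6.45, 11.1 and 8.37 CPM in the Old control libraries. All but Old OSK replicate 4 lay above the control libraries. Ezh2 had a log2 fold change of 0.56 (SE 0.21, adjusted p = 0.124), and with age it was -0.02 (SE 0.17, adjusted p = 0.959). Without Old control replicate 2 the value after OSK was 0.75 (adjusted p = 0.0323), and over the 7 fits without a library the adjusted p ran from 0.0323 to 0.442.

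The proliferation markers Mki67, Top2a, Ccnb1, Cdk1 and Birc5 were all detected and are given beside Ezh2. Their summed level was 80.9, 58.3, 72.5 and 28.3 CPM in the Old OSK libraries 1 to 4, 25.1 to 30.4 CPM in Old control, 18.4 to 69.6 CPM in Old and 16.6 to 35.7 CPM in Young. The part of dividing cells in the Ezh2 values was not tested. The log2 ratio of Ezh2 to Ezh1 was -2.15 ± 0.26 in Old OSK (SD, n = 4) and -2.72 ± 0.44 in Old control (SD, n = 3), a difference of 0.58 (two-sided exact permutation p = 0.0857, adjusted p = 0.386 over 9 tests; the smallest p that 35 splits allow is 0.0286). That of Cbx2 to Cbx7 differed by 1.12 (exact p = 0.0857, adjusted p = 0.386), and by 0.33 with age (exact p = 0.412), with 0.03 without Old replicate 4 (exact p = 0.983) and 0.77 without Old replicate 1 (exact p = 0.0167, unadjusted). No ratio passed over all libraries in any of the 3 comparisons.

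**Figure D3:**
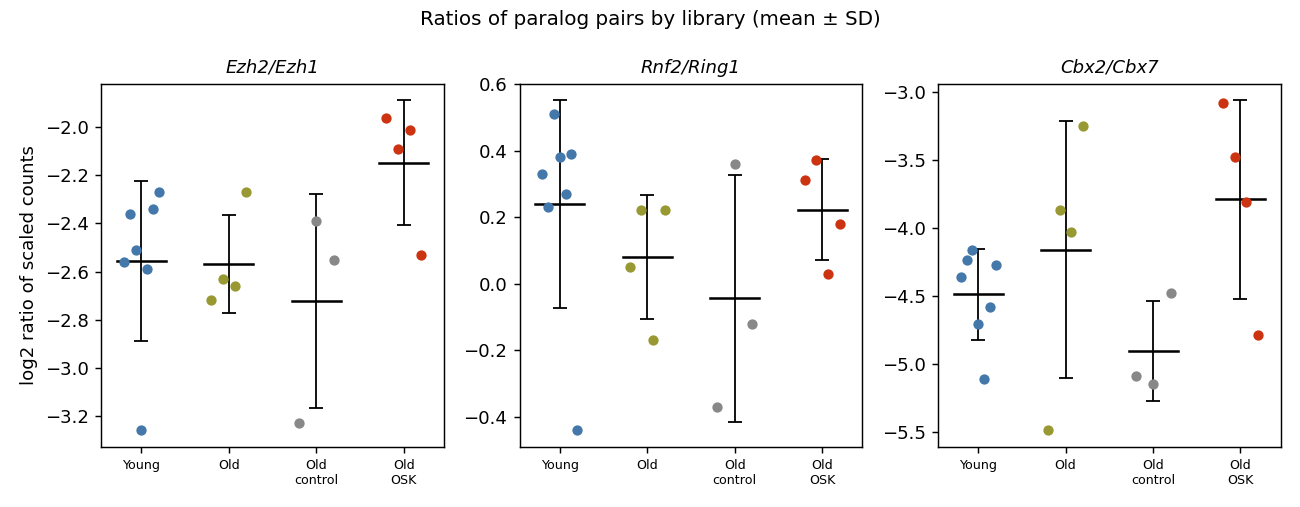
Log2 ratios of scaled counts within each library (y axes) for Ezh2 to Ezh1, Rnf2 to Ring1 and Cbx2 to Cbx7 in the 4 groups; points are libraries and bars the mean ± SD. For Ezh2 to Ezh1, 3 of the 4 Old OSK libraries (-1.96, -2.09 and -2.01) lie above all Old control libraries, and Old OSK replicate 4 (-2.53) lies among them.

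Eed and Suz12 encode the non-catalytic core of PRC2. Suz12 had 58.4, 66.2, 62.4 and 76.1 CPM in the Old OSK libraries and 80.2, 99.4 and 63.1 CPM in the Old control libraries, which overlapped. The log2 fold change was -0.3 (SE 0.13, edgeR adjusted p = 0.171), and -0.16 with age (SE 0.11, adjusted p = 0.358). Eed leaned the opposite way, with 22.4, 23.8, 31.4 and 20.7 CPM in Old OSK and 16.6, 25.4 and 18.4 CPM in Old control. Its log2 fold change was 0.29 (SE 0.17, adjusted p = 0.291), and 0.2 with age (SE 0.14, adjusted p = 0.34). The Eed groups overlapped in both comparisons.

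Counted together, the 9 listed genes other than Bmi1 had no call after OSK by edgeR or by DESeq2; at an unadjusted p under 0.05 Cbx2 and Ezh2 were higher and Suz12 lower. Over all genes edgeR called 0.728% (65 higher and 51 lower, or 64 and 29 with median-ratio scaling). DESeq2 called 1640 of 14081 genes. At an unadjusted p under 0.05 in edgeR, 13.3% of all genes were higher and 13% lower. The median log2 fold change of the 9 was 0 and that of all genes -0.03. With age the median of the 10 was -0.05 and that of all genes 0. After OSK the groups of all 9 overlapped, where 6.55% of all genes were higher and 5.84% lower without overlap.

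**Figure D4:**
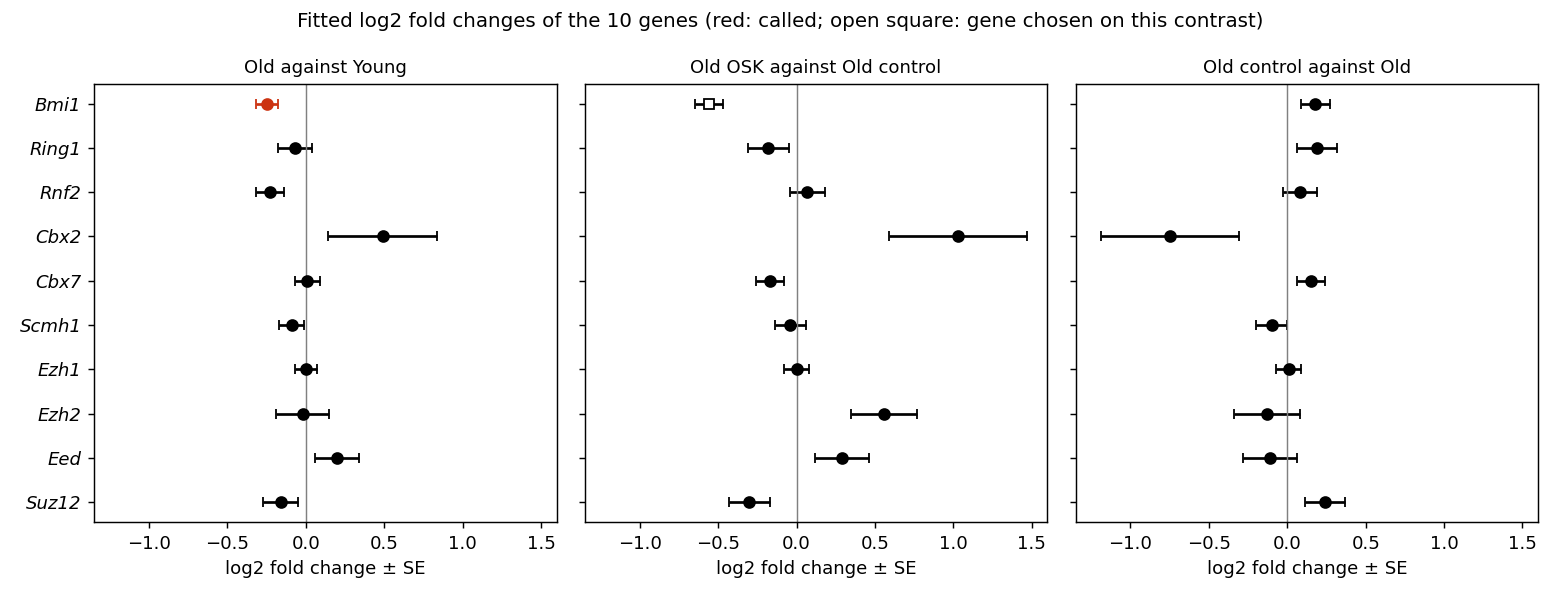
Fitted log2 fold changes ± SE (x axes) of the 10 genes (rows) in the 3 comparisons; red marks a gene called at an adjusted p under 0.05 and the open square Bmi1 in the contrast that chose it. Bmi1 is negative with age (-0.25) and after OSK (-0.56), and after OSK Cbx2 (1.03) and Ezh2 (0.56) lie on the positive side without a call.

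A wider list of 43 Polycomb-related genes was examined next, of which 42 were in the table and tested. With age none was called by edgeR (1 higher and 10 lower at an unadjusted p under 0.05, where all genes had 15.6% higher and 13.4% lower), and DESeq2 called 4, where it called 2452 of 15907 genes overall. The median log2 fold change of the 8 other canonical PRC1 genes was -0.24 and that of the 12 genes for deubiquitinase complexes and H3 lysine 27 demethylases -0.2; those of variant PRC1 and of PRC2 accessory subunits were -0.03 each, and that of all 42 genes was -0.12. The lowest adjusted p belonged to Phc1, a Polyhomeotic homolog of canonical PRC1. Phc1 stood at 66.9 ± 6 CPM in Young (SD, n = 7) and 56.2 ± 4.44 CPM in Old (SD, n = 4), a fitted change of -0.25 (SE 0.08, adjusted p = 0.0521). Rbbp7, a histone-binding subunit that PRC2 shares with other complexes, had -0.18 (adjusted p = 0.0627), and Epop, an adaptor of PRC2, had 1.68 (SE 0.56, adjusted p = 0.0627) at a low level. Mga (-0.23, adjusted p = 0.106) and Bcorl1 (-0.24, adjusted p = 0.268) were lowest in p among variant PRC1 genes, and Hcfc1 (-0.22, adjusted p = 0.0972), a partner of BAP1, among the opposing enzymes.

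After OSK 1 of the 42 was called, Yaf2, where 0.32% of all genes were called lower. YAF2 and its relative RYBP take the place of CBX proteins in variant PRC1. Yaf2 had 20.5, 20.7, 23.5 and 24.9 CPM in the Old OSK libraries and 34.4, 38.7 and 31.3 CPM in the Old control libraries, which did not overlap (log2 fold change -0.64, SE 0.13, edgeR adjusted p = 0.035). The Old libraries, at 22.9 to 31.3 CPM, overlapped the Old OSK libraries, and Old control was above Old by 0.43 (SE 0.13, adjusted p = 0.9). With the replicate number as a block the change after OSK was -0.69 and not called (adjusted p = 0.0671). It was called in 2 of the 7 fits without a library (without Old control replicate 2 or Old OSK replicate 4; adjusted p = 0.015 to 0.17). Rybp was at -0.24 (adjusted p = 0.2).

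Without overlap 4 of the 42 were lower (5.84% of all genes) and 1 was higher (6.55% of all genes). Beside Yaf2, Phc1 (-0.22, adjusted p = 0.151), Bap1 (-0.35, adjusted p = 0.112) and Hcfc1 (-0.17, adjusted p = 0.306) were lower in all 4 Old OSK libraries than in all 3 Old control libraries without passing the test, and Bcorl1 (0.55, adjusted p = 0.0886) was higher in all 4. Bap1 encodes the deubiquitinase that removes the PRC1 mark. Its Old OSK libraries had 61.9 to 67.2 CPM and its Old control libraries 69.1 to 91.1 CPM. Foxk2 (-0.16, adjusted p = 0.264), Scml2 (0.67, adjusted p = 0.246), Aebp2 (0.38, adjusted p = 0.187) and Epop (1.23, adjusted p = 0.284) had the lowest p left in their lists. In Old control against Old none of the 42 was called, where edgeR called 0 of 15944 genes and DESeq2 0 of 15907. In edgeR 3 of the 42 and 3.74% of all genes had an unadjusted p under 0.05. The lowest p within canonical PRC1 belonged to Cbx8 (0.47), those within variant PRC1 to Yaf2 and E2f6 (0.27), each with an adjusted p of 0.9, and that within the PRC2 accessory genes to Mtf2 (0.22, adjusted p = 0.903).

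Textbook targets of Polycomb repression were read as the last group. Of 42 such genes 3 passed the filter on low counts. None of the 39 Hox genes passed; 2 had 0 reads in every library, and the most in any library was 24 reads, on Hoxb4. Cdkn2a and Cdkn2b lie together on chromosome 4 and encode the Ink4 inhibitors; Cdkn2a also encodes ARF, which a count per gene cannot separate.

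Cdkn2b had 41.2, 21.7, 18.9 and 4.16 CPM in the Old OSK libraries and 2.54, 6.93 and 6.19 CPM in the Old control libraries. Old OSK replicate 4, with M, lay inside the control range and the other 3 above it. The log2 fold change was 2.04 (SE 0.75, edgeR adjusted p = 0.114), and it passed without Old OSK replicate 4 (2.35, adjusted p = 0.0407) and by DESeq2 (2.06, adjusted p = 0.0335). It was lower at 1.46 without Old OSK replicate 1 (adjusted p = 0.262) and at 1.44 with M as a covariate (adjusted p = 0.392). With age the libraries ran from 2.63 to 20.8 CPM in Old, the highest in Old replicate 4, and from 1.58 to 7.66 CPM in Young, with a fitted change of 1.64 (SE 0.57, adjusted p = 0.0708). That change passed by DESeq2 (1.64, adjusted p = 0.0283). In edgeR it did not pass with M (1.37, adjusted p = 0.194) or the rod score (1.68, adjusted p = 0.168) as a covariate. Leaving out Old replicate 4 brought it down to 0.94 (adjusted p = 0.418), while it was 2.05 (adjusted p = 0.0251) on omitting Young replicate 3 and 1.95 (adjusted p = 0.0314) on omitting Old replicate 1.

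Cdkn2a was near the floor, with 43, 36, 23 and 13 reads in the Old OSK libraries, 1, 10 and 2 in Old control, 4 to 24 in Old and 0 to 7 in Young. Every Old OSK library lay above every Old control library, as was so for 6.55% of all genes. The lowest Old OSK library had 0.403 CPM and the highest Old control library 0.338 CPM. The gene was high enough for the filter mainly through Old OSK, so its difference there is given as a description with no test. Its fitted log2 difference there was 2.98 (SE 1.07). With age it was 1.66 (adjusted p = 0.213). Cdkn1c, an imprinted cell cycle inhibitor, had 0.1 after OSK (adjusted p = 0.836) and -0.45 with age (adjusted p = 0.138).

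Bmi1 and Cdkn2b can be read side by side in single libraries. Old OSK replicate 4 combined the lowest Cdkn2b (4.16 CPM) with Bmi1 at 70.5 CPM, and replicate 1 the highest Cdkn2b (41.2 CPM) with Bmi1 at 65.7 CPM, a range of Bmi1 no wider than 65.5 to 70.5 CPM. In the Old group, replicate 4 had the most Cdkn2b (20.8 CPM) and the least Bmi1 (85.4 CPM). The same library had the lowest RPE marker sum of the Old group (26460 CPM) and its highest proliferation marker sum (69.64 CPM). With 4 libraries in a group no relation was computed.

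**Figure D5:**
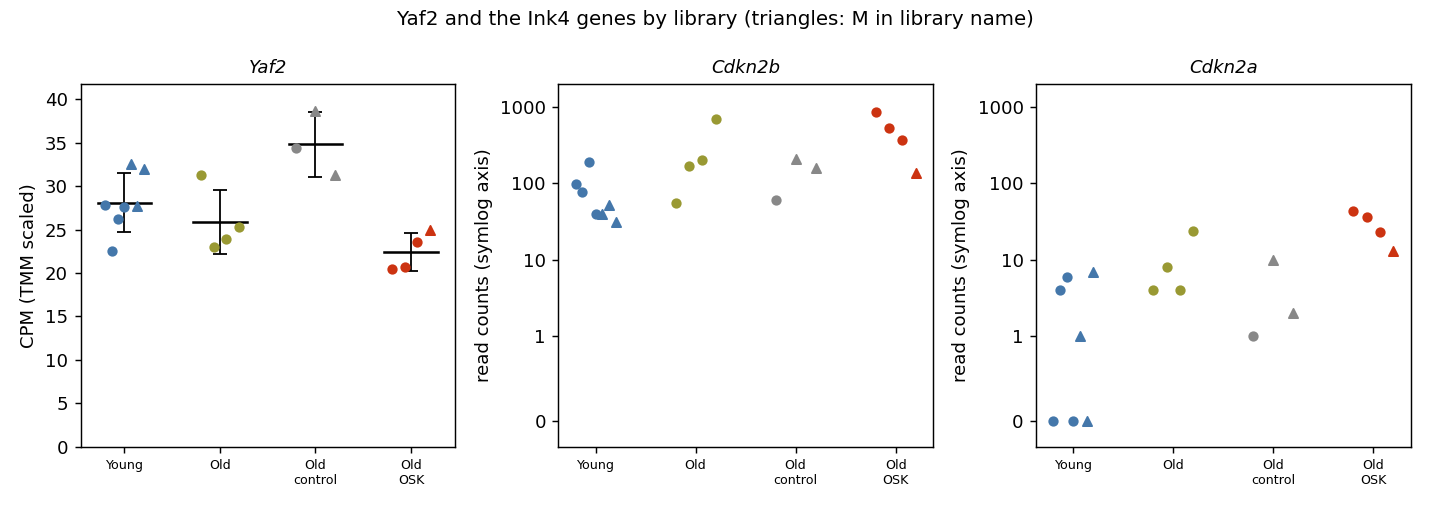
Yaf2 in CPM (y axis from 0, bars mean ± SD) and Cdkn2b and Cdkn2a in read counts on a symmetric log axis that is linear below 1, by library and group (triangles with M in the name). Yaf2 lies at 20.5 to 24.9 CPM in Old OSK against 31.3 to 38.7 in Old control, and Cdkn2a at 13 to 43 reads in Old OSK against 1 to 10.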

How the data were processed

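RNA from mouse RPE gave 18 libraries by SMART-Seq cDNA amplification and Nextera XT tagmentation, per the labels' protocols. The authors deposited raw read counts per gene; STAR 2.7.1a and featureCounts 1.6.2 are named, with build GRCm38, per the submitters' processing notes. Annotation and strand setting are not given in the sources used here. Library totals were 18104828 to 32348136 counts.

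Columns were matched by title. In edgeR 4.0.16, filterByExpr (at least 10 counts, and 15 in total) kept 15944 genes. These were scaled by TMM and fitted over all 18 libraries with 4 group means by edgeR's quasi-likelihood test (R 4.3.3). P-values were adjusted by Benjamini-Hochberg over all genes tested, and a gene is called under 0.05. CPM values use TMM-scaled library sizes; log2 CPM has a prior count of 2. The pipeline was tested on simulated data. Ratios of paralogs were compared by exact permutation of libraries. Alternatives were median-ratio size factors, no filter, a mean of 50 counts, DESeq2 1.42.0, the compared groups alone, a replicate block, M or a rod score as covariate, and leaving out each library.

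Named were all 10 members, Pcgf2, called genes of each wider list (at most 4 per direction) or else its 2 lowest p, and the 5 genes most like Bmi1. Members and lists were chosen with earlier results of these data known. No replicates agreed within sampling noise (lowest chi-square for a pair, per gene, 20.3), and none was merged. Old OSK and Old control libraries of the same number deviated together across genes (r = 0.103, 0.421 and 0.339). Their numbers were therefore tried as a pairing in the alternative fit with a replicate block. The main fit has no block, so the main tests are unpaired. The pairing rests on the data, since no label explains the numbers in the titles. Those numbers differ from the ones in the library names for these groups.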

Additional observations from a re-analysis of the deposited data

Results flagged for a closer look

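Each library of the Young, Old and Old OSK groups was compared with its nearest neighbour in value relative to the range of its group, for the named genes and the paralog ratios. Of 102 such checks 7 stood out, where chance gives about 1 in 20, and none was the level of a listed gene. Phc1 was low in Old replicate 4 (49.6 CPM, next 57.6). Mtf2 was high in Old replicate 4 (18.9 CPM, next 16.6), and Kdm6a in Old replicate 1 (46.2 CPM, next 41.4). Cdkn2b was high in Young replicate 3 (7.66 CPM, next 3.17). Uty stood at 22.7 CPM in Old OSK replicate 4, the library with M, and at most at 0.339 CPM in the other Old OSK libraries. The log2 ratio of Ezh2 to Ezh1 was low in Young replicate 4 (-3.26, next -2.59), and that of Rnf2 to Ring1 in Young replicate 7 (-0.439, next 0.234).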

How the results depend on the processing

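Of the 10 listed genes, 1 was called in Old against Young (Bmi1, -0.25), and 0 were called with median-ratio size factors (Bmi1 -0.24), without a low-count filter (-0.24), with a mean of 50 counts (-0.22), with M (-0.26) or the rod score (-0.29) as a covariate, with a replicate block (-0.23), in the same libraries without the block (-0.23) and in the libraries without M (-0.23). Bmi1 stayed called with DESeq2 (-0.24, adjusted p = 0.0241) and with edgeR in the compared groups alone (-0.23, adjusted p = 0.0417). Leaving out single libraries gave 0 to 1 called genes and -0.27 to -0.23 for Bmi1. The 42 other Polycomb genes went from 0 called to 4 with DESeq2 and 1 in the compared groups alone, and to between 0 and 2 without a library. After OSK, of the 9 listed genes beside Bmi1, 0 to 1 were called without a library (Ezh2, without Old control replicate 2). The 1 call among the other genes (Yaf2) became 0 with median-ratio size factors, no filter, M as a covariate, the compared groups alone and the replicate block, 2 with DESeq2, and 0 to 6 without a library (6 without Old control replicate 2). The cause of these shifts was not tested.

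After OSK the calls over all genes were 116, and in the 6 paired libraries 461 with the replicate block and 990 without it. Among the genes tested here, Yaf2 (-0.69) and Cdkn2b (2.38) were called in these 6 libraries without the block (adjusted p = 0.0412 and 0.04) and not with it (-0.69 and 2.36, adjusted p = 0.0671 and 0.0686), and no other call changed. Without Old control replicate 2 there were 2881 calls and without Old control replicate 1 there were 13. In Old against Young the numbers did not pair the libraries (r = -0.193 to 0.144), and the calls over all genes were 1524, against 0 with the block and 191 in the same libraries without it; in Old control against Old they did not pair either (r = -0.189 to 0.359), with 0 calls in each fit. In none of the 3 comparisons did every library correlate best with its own number (after OSK, 2 of 3 libraries in each group did). DESeq2 called 2452 genes with age and 1640 after OSK, M as a covariate gave 600 and 58, the rod score gave 485 with age, and the compared groups alone gave 2 after OSK. Under the scalings tried the median log2 fold change of all genes stayed between -0.03 and 0.04. Depth limits Cbx2 (18 to 136 reads) and Cdkn2a (0 to 43 reads).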

Other observations

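The X-linked H3 lysine 27 demethylase gene Kdm6a and its Y-linked relative Uty followed the M in the library names. Uty had 501 to 781 reads in the 6 libraries with M and 0 to 14 in the other 12. Kdm6a stood at 20.8 to 29.3 CPM in the libraries with M and at 40.4 to 51.1 CPM in those without, with no overlap. Because no Old library carries an M, the log2 fold changes of Uty with age (-5.35, edgeR adjusted p = 0.117) and in Old control against Old (5.87, adjusted p = 0.9), and of Kdm6a in the latter (-0.39, adjusted p = 0.903), cannot be told apart from the share of such libraries in each group.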
